A study of Mus musculus with 288 samples.

Results

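The genes Mbp, Mog, Mag, Mobp, Gfap, Aqp4, Slc1a2, Slc1a3 and Gdf10, of which 4 belong to myelin and 5 to astrocytes and Bergmann glia, were followed through 6 mouse tissues, with the cerebellum first. They were picked by name as markers of these cells, with earlier results of these data known, and all 9 were found among the 35904 genes of the tables. Male wild-type C57BL/6J mice, 8 weeks old, breathed room air (normoxia) or air whose oxygen cycled between 21% and 8% during the light, inactive phase (intermittent hypoxia, IH) for 7 days. All of them then spent 2 days in constant darkness in normoxia, and cerebellum, lung, liver, kidney, muscle and heart were collected every 3 hours over the second of these days. Each tissue gave 24 libraries in normoxia and 24 after IH, 3 at each of 8 time points, and the libraries of different tissues may come from the same mice. The labels name no transgene, knockout or drug in either group, and both groups carried the same genotype and went through the same darkness before collection. Intermittent hypoxia is used as a model of the repeated falls in blood oxygen in obstructive sleep apnea.

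Myelin is the layered membrane that oligodendrocytes wrap around axons in the central nervous system, and it speeds the conduction of nerve impulses. Astrocytes clear glutamate and potassium from around synapses and line blood vessels with their endfeet, and the Bergmann glia are the specialised astrocytes of the cerebellar cortex, whose processes enclose the synapses on Purkinje cells. In the cerebellum, myelin lies mainly in the white matter tracts and Bergmann glia lie in the cortex beside the Purkinje cells, so a dissected piece can hold more of one and less of the other.

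The values are TPM (transcript shares of each library), which are scaled for transcript length and to a common sum in each library, so that levels can be compared between genes. They hold no counts, so the depth and the counting error of each library are unknown. Because the RNA came from whole tissue, fewer cells of a type and less RNA per cell cannot be told apart in any of the results. Libraries summed to between 989211 and 999188 TPM, and 0 of the 288 held the same values as another. Changes after IH were measured on TPM that were first divided by a median-of-ratios factor for each library, as log2(scaled TPM + 0.5), a scale that understates the change of genes with low values. A gene with a tissue mean under 1 TPM was not tested there, and the others were tested with limma and a Benjamini-Hochberg adjustment over all genes tested, and a gene was called at an adjusted p of 0.05. A stricter call also asked for a 1.5-fold change.

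Transcripts of heart muscle were found in cerebellum libraries at widely different levels, 6 of the 48 stood above a limit for them, and 2 libraries of other tissues held transcripts of another tissue as well. By that limit, set with the values in view, 10% of the median level in the heart, Myh6, the atrial and ventricular myosin heavy chain, marked 3 normoxia libraries of the cerebellum (replicates 1 at 1:30, 1 at 4:30 and 3 at 4:30) and 3 IH libraries (replicates 2 and 3 at 1:30 and 1 at 10:30). The highest of them, replicate 3 at 1:30 after IH, held 1501 TPM of Myh6, which is 33.5% of the heart's median. It also had the lowest median correlation to the other cerebellum libraries of both treatments, 0.767 across genes. The liver IH library of replicate 2 at 13:30 held 1507 TPM of Myh6. The heart IH library of replicate 2 at 10:30 held 62.5 TPM of Pcp2, a Purkinje cell gene, which is 3.64% of its median in the cerebellum. For Pcp2 the limit was lower, at 1% of that median, and it was also set with the values in view. Changes, rhythms and correlations in the cerebellum are given with all libraries, and the values named are repeated without the 6 above the limit. Gm19220, a predicted gene, took between 13664 and 452062 TPM of a cerebellum library, which lowers the TPM of every other gene in it. The number of genes above 0 TPM also moved with treatment in the lung, from 22694 ± 737 in normoxia to 25455 ± 1529 after IH, and in the heart, from 25124 ± 1719 to 21447 ± 688 (SD, n = 24 each).

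The positions of 7 of the genes are given on GRCm38 from GENCODE mouse release 21. Mog lies at chr17:37010743-37023398 and Mag at chr7:30899176-30914873, both on the minus strand, and Mobp at chr9:120149707-120181484 on the plus strand. Gfap lies at chr11:102887336-102900912 on the minus strand and Slc1a2 at chr2:102658659-102790784 on the plus strand. Slc1a3 lies at chr15:8634124-8710764 on the minus strand and Gdf10 at chr14:33923587-33937983 on the plus strand.

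The sequence before the start of transcription is shown for Mobp and Mag, the genes with a window that held ACAAAG, a motif described below. The levels of all the myelin genes were correlated across cerebellum libraries, and the Mog window, which held no match, is not printed. Slc1a3 and Gdf10, whose levels were correlated as well, are also shown. Windows of 250 bases before a RefSeq start (GRCm38.p6) were found for 7 of the 9 genes, with 9 windows in all since Mag has 3. Each was searched on both strands for ACAAAG, a core that SOX factors such as the oligodendrocyte factor Sox10 bind, and for ACGTG, the core bound by hypoxia-inducible factors. The windows below run 5′ to 3′ on the gene's strand, and capitals mark ACAAAG or its reverse complement CTTTGT. For Mobp the 215 bases before the first base annotated in GENCODE, chr9:120149492-120149706, are printed. For the others all 250 bases are printed, at chr7:30914923-30915172 for Mag, chr15:8710808-8711057 for Slc1a3 and chr14:33923337-33923586 for Gdf10.
Mobp: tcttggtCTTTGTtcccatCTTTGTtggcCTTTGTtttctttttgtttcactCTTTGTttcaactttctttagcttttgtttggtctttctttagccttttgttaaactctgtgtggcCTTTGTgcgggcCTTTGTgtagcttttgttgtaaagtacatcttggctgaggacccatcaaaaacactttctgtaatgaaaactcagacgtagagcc
Mag: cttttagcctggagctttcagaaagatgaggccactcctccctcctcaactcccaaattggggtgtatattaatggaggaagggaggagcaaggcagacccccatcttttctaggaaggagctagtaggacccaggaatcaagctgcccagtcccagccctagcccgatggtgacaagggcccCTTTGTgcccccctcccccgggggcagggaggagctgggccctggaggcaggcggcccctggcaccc
Slc1a3: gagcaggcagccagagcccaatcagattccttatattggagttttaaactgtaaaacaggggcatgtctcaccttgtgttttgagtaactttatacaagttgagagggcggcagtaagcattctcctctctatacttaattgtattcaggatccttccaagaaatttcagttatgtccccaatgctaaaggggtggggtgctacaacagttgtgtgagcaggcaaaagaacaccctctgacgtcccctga
Gdf10: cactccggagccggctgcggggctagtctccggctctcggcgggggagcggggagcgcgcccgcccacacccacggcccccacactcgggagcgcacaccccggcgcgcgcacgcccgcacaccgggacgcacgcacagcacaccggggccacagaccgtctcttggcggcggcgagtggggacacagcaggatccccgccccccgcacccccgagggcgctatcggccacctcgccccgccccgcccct

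The Mobp window held ACAAAG 6 times, each as CTTTGT on the printed strand, and the printed Mag window held it 1 time. Of 32817 promoter windows of the same length, 5404 held at least 1 match, 45 (0.137%) held 3 or more, and 1, the Mobp window itself, held 6 or more. A second Mag window, which overlaps the first, held the same match and the third held 0. The windows of Mog, Gfap, Slc1a2, Slc1a3 and Gdf10 held 0 matches. Those of Gfap and Slc1a2 and the third of Mag lie inside the annotated gene, downstream of its first base in GENCODE, and are not printed. ACGTG was in 0 of the 9 windows and in 16.6% of all windows. CACGTG, the E-box that clock factors bind and which contains ACGTG, was in 0 of the 9 and in 6.02% of all windows. AGGTCA, the core bound by ROR and REV-ERB receptors, was in the Gfap window 1 time and in 14% of all windows. These matches describe the letters in the windows and no binding was measured.

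Mbp and Mobp were the most abundant of the 9 genes in the cerebellum, and neither they nor Mog and Mag passed the test after IH. Mbp, which encodes the myelin basic protein that compacts the layers of the sheath, ranged over the normoxia libraries from 899 TPM through a median of 1660.4 to 3508 TPM. After IH it ranged from 113 through 2028 to 7808 TPM. The IH libraries reached both lower and higher than the normoxia libraries, and the groups overlapped. On the scaled values the mean was 1873 in normoxia and 2283 after IH, a log2 difference of 0.13 ± 0.21 (SE, adjusted p = 0.72).

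Mobp, which encodes a small basic protein of compact myelin, ranged in normoxia from 169 through 421 to 948 TPM and after IH from 28.9 through 512 to 1817 TPM. Its highest IH library, replicate 1 at 22:30, was also the highest for Mbp. The log2 difference was 0.07 ± 0.21 (adjusted p = 0.846), and the whole range in normoxia lay within that after IH.

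Mog encodes a glycoprotein on the outer surface of the myelin sheath, and its range was 51.5 to 149 TPM in normoxia, with a median of 74.8. After IH it was 8.06 to 172 TPM with a median of 78.5. Mag, a receptor of the innermost myelin layer that faces the axon, had a median of 77.8 TPM in normoxia (39.8 to 182) and of 81.2 TPM after IH (5.47 to 186). Both genes overlapped between the groups, with log2 differences of -0.12 ± 0.16 for Mog (adjusted p = 0.645) and 0.02 ± 0.18 for Mag (adjusted p = 0.953).

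**Figure D1:**
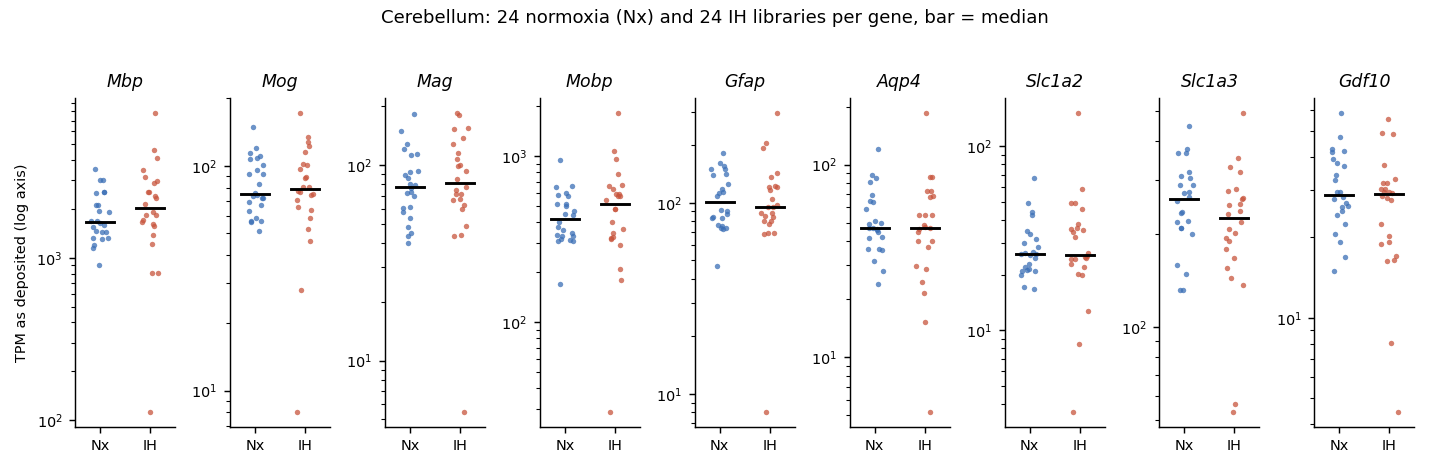
TPM as deposited (log axis) of each of the 9 genes in the 24 normoxia (Nx) and 24 IH libraries of the cerebellum, with 1 point per library and the median as a bar. The groups overlap for every gene, and the lowest IH point of each gene is replicate 3 at 1:30.

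Slc1a3 was the most abundant of the astrocyte genes in the cerebellum. It encodes GLAST, the glutamate transporter of Bergmann glia, and ranged in normoxia from 132 through 260.3 to 447 TPM and after IH from 53.2 through 226 to 495 TPM. Its scaled mean was 252 in normoxia and 216 after IH, a log2 difference of -0.26 ± 0.12 (unadjusted p = 0.0315, adjusted p = 0.126 by limma). It did not pass the test. Within the 3 replicate numbers, which are parts of the same libraries, the difference was -0.43, -0.10 and -0.26, and none of these passed (adjusted p = 0.264, 0.707 and 0.975 by limma).

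Gdf10, a member of the TGF-beta family expressed in Bergmann glia, had a median of 28.9 TPM in normoxia (14.99 to 58.5) and of 29.0 TPM after IH (4.45 to 55.6). The medians of the deposited values were nearly equal, while the scaled means were 30.4 and 26.3. The log2 difference was -0.26 ± 0.13 (unadjusted p = 0.0492, adjusted p = 0.164), with values of -0.52, 0.03 and -0.27 within replicate numbers 1, 2 and 3.

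Slc1a2 encodes GLT-1, the main glutamate transporter of astrocytes in the forebrain, and it was about as abundant as Gdf10 in the cerebellum. Its median was 26.1 TPM in normoxia (16.7 to 67.3) and 25.7 TPM after IH (3.62 to 152). The IH libraries spread wider on both sides, and the log2 difference was 0.02 ± 0.16 (adjusted p = 0.964).

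Aqp4, the water channel of astrocyte endfeet, had a median of 46.8 TPM in normoxia (23.9 to 120.0) and 47.0 TPM after IH (5.19 to 186). Gfap, the intermediate filament protein of astrocytes, had a median of 100.4 TPM in normoxia (46.6 to 183) and 94.9 TPM after IH (8.05 to 295). Both overlapped between the groups, and the log2 differences were -0.17 ± 0.16 for Aqp4 (adjusted p = 0.5) and -0.10 ± 0.17 for Gfap (adjusted p = 0.732).

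In the cerebellum 0 of the 9 genes were called after IH at the adjusted p of limma and 2 had an unadjusted p under 0.05, where 15% of the 14892 genes tested were called (2.64% with the 1.5-fold change, which 0 of the 9 met). The count over all genes moved widely with the libraries: it was 2234 with all of them, 3629 of 14861 without replicate 3 at 1:30 after IH, and 175, 48 and 5289 without replicate numbers 1, 2 and 3. The interval of the difference reached from -0.29 to 0.54 for Mbp, from -0.33 to 0.48 for Mobp and from -0.49 to -0.03 for Slc1a3 (95%, log2, unadjusted), so that for Mbp and Mobp the interval holds changes in either direction. Leaving out the 6 libraries above the limit for heart transcripts gave again 0 of 9, where 3141 of 14768 genes were called, with 0.30 for Mbp, 0.25 for Mobp, -0.15 for Slc1a3, -0.14 for Gdf10 and -0.06 for Aqp4. With the level of heart transcripts as a further term in the model, an alternative added with the values in view, 3 of the 9 were called, where 3321 of 14892 genes were, and all 3 fell: Aqp4 by 0.38 (adjusted p = 0.000763), Slc1a3 by 0.36 (adjusted p = 0.00505) and Gdf10 by 0.36 (adjusted p = 0.0117). Under that term the differences of Mbp (-0.07), Mag (-0.15), Mobp (-0.09) and Slc1a2 (-0.18) took the other sign, and none of these 4 passed the test.

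A 24-hour rhythm was not detected in the cerebellum for any of the 9 genes. A cosine fit with a period of 24 hours called 0 of the 9 genes in normoxia, where 0% of 21372 genes were called, and 0 of 9 after IH, where 0.00936% were, with 0 of 9 at an unadjusted p under 0.05 in either group. The rhythm of 0 of the 9 genes differed between the treatments, where 0% of all genes did. Without the 6 libraries above the limit the rhythmic genes were again 0 of 9 in each treatment. Mbp is an example of the spread: its scaled mean was 2128 ± 1445 at 1:30 and 1412 ± 395 at 4:30 in normoxia, and 981 ± 773 at 1:30 and 4599 ± 2319 at 22:30 after IH (SD, n = 3 each). At 1:30 in normoxia the 3 libraries held 1217, 3794 and 1372 scaled TPM of Mbp, so that a single time point spanned more than the range of the 8 time means in normoxia. The amplitude fitted to Mbp after IH, 0.48 on the log2 scale, had an adjusted p of 0.98 by limma.

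The spread among cerebellum libraries was shared between genes. Correlations were taken over the 24 libraries of each treatment apart, as Pearson's r of log2 values with 100000 permutations, for 36 pairs in each treatment, and p-values were adjusted over all 72. In normoxia 19 pairs passed, 18 of them positive, and after IH 27 passed, all positive. The count after IH moved with the libraries and terms: it was 20 without the 6 libraries above the limit, 15 with the term for heart transcripts and 16 without the 2 libraries farthest from the median of the x axis, where in normoxia the counts were 19, 22 and 19. By Spearman's rho 20 pairs passed in each treatment. The libraries share the dissection and the tissue, so that the correlations describe what varied from library to library. The treatments are not compared by these correlations. The share of all gene pairs in the cerebellum that would pass is not given here. The counts of pairs, and those of the myelin pairs below, are therefore not read as particular to these genes.

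All 6 pairs of myelin genes were correlated in both treatments. In normoxia their r lay between 0.73 and 0.89, and after IH between 0.84 and 0.99. The highest was Mbp with Mobp after IH, with r = 0.99 and rho = 0.96, and r = 0.97 without the 2 libraries farthest from the median of Mbp (permutation p = 1e-05, the smallest that the resamples can give, adjusted p = 3.79e-05). Without the 6 libraries above the limit for heart transcripts the same pair had r = 0.93 in normoxia and 0.98 after IH.

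Gfap was correlated with the myelin genes and with some of the astrocyte genes. Its r with Mobp was 0.92 in normoxia and 0.89 after IH, and with Mbp 0.88 and 0.90 (adjusted p = 3.79e-05 for each). With Slc1a2 it was 0.59 (adjusted p = 0.00465) and 0.58 (adjusted p = 0.013), and with Aqp4 0.30 in normoxia (adjusted p = 0.197) and 0.63 after IH (adjusted p = 0.0077). With Slc1a3 it was -0.22 in normoxia (adjusted p = 0.327) and 0.16 after IH (adjusted p = 0.443). Without the 6 libraries above the limit its r with Mobp was 0.90 and 0.85, with Slc1a2 0.49 (adjusted p = 0.0462) and 0.32 (adjusted p = 0.207), and with Slc1a3 -0.37 (adjusted p = 0.152) and -0.50 (adjusted p = 0.0363). No difference between these correlations was tested.

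Slc1a3 and Gdf10, both Bergmann glia genes, were correlated at r = 0.84 in normoxia and 0.93 after IH (rho 0.83 and 0.89, adjusted p = 3.79e-05 for each r). With the term for heart transcripts the values were 0.79 and 0.87, and without the 6 libraries 0.90 and 0.86. Mog was lower where Slc1a3 was higher in normoxia, with r = -0.45 and rho = -0.25 (adjusted p = 0.0444 for r), but r was -0.17 without the 2 farthest libraries, so that this relation rests on those libraries.

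Aqp4 and Slc1a2 were correlated at r = 0.79 in normoxia and 0.91 after IH (rho 0.79 and 0.77, adjusted p = 6.26e-05 and 3.79e-05). Their r was 0.74 and 0.76 without the 6 libraries above the limit for heart transcripts, and 0.34 and 0.31 with the term for heart transcripts. In normoxia Aqp4 was also correlated with Slc1a3, at r = 0.70 (adjusted p = 0.000546), and with Gdf10, at 0.52 (adjusted p = 0.0147).

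**Figure D2:**
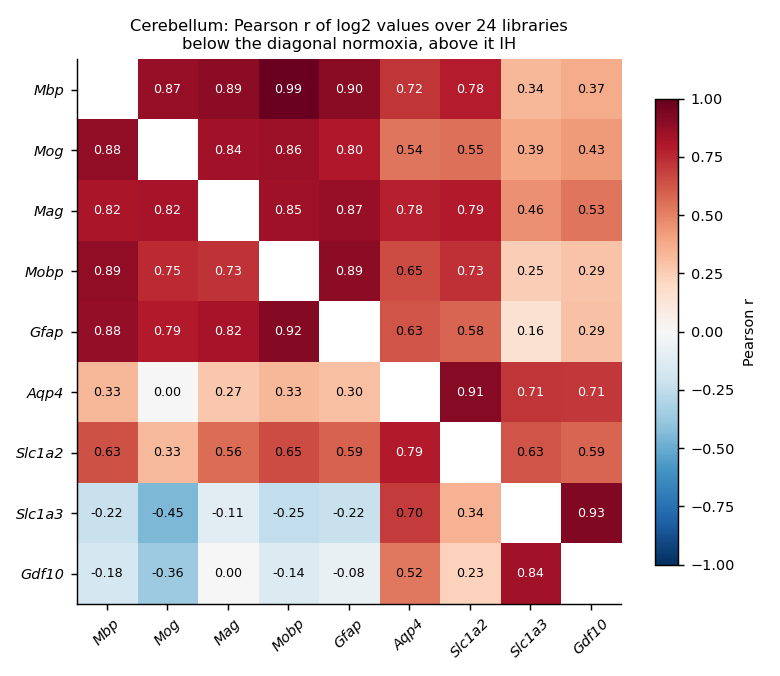
Pearson's r between the 9 genes over 24 normoxia libraries (below the diagonal) and 24 IH libraries (above it) of the cerebellum, with the value printed in each cell and the colour running from negative to positive. The 4 myelin genes and Gfap form a block with r of at least 0.73 in normoxia, and Slc1a3 pairs with Gdf10 at 0.84 and 0.93.

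Transcripts of other regions and tissues moved with these genes. The summed level of 4 muscle and heart fibre genes (Acta1, Ckm, Myh6 and Tnnt2) ranged in the cerebellum from 27.2 to 3030 TPM in normoxia, with a median of 448, and from 62.8 to 4394 TPM after IH, with a median of 267, and 0 of the 4 were at 0 throughout. Over 162 relations of the 9 genes with 9 marker lists in both treatments, Aqp4 was lower where this sum was higher, with r = -0.88 in normoxia and -0.93 after IH (rho -0.90 and -0.86, adjusted p = 0.00018 for each r), and r = -0.89 and -0.85 without the 2 farthest libraries. Slc1a2 showed r = -0.82 and -0.90 (adjusted p = 0.00018 for each). Mbp showed -0.47 (adjusted p = 0.0482) and -0.76 (adjusted p = 0.000579), and Mog -0.15 in normoxia (adjusted p = 0.566) and -0.55 after IH (adjusted p = 0.02), the latter at -0.02 without the 2 farthest libraries. Over the 21 libraries of each treatment below the limit for Myh6, r was -0.86 in normoxia and -0.81 after IH for Aqp4, -0.78 and -0.75 for Slc1a2, -0.36 and -0.40 for Mbp and -0.07 and 0.14 for Mog, given without a test. Whether heart transcripts account for the spread of the 9 genes was not tested.

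**Figure D3:**
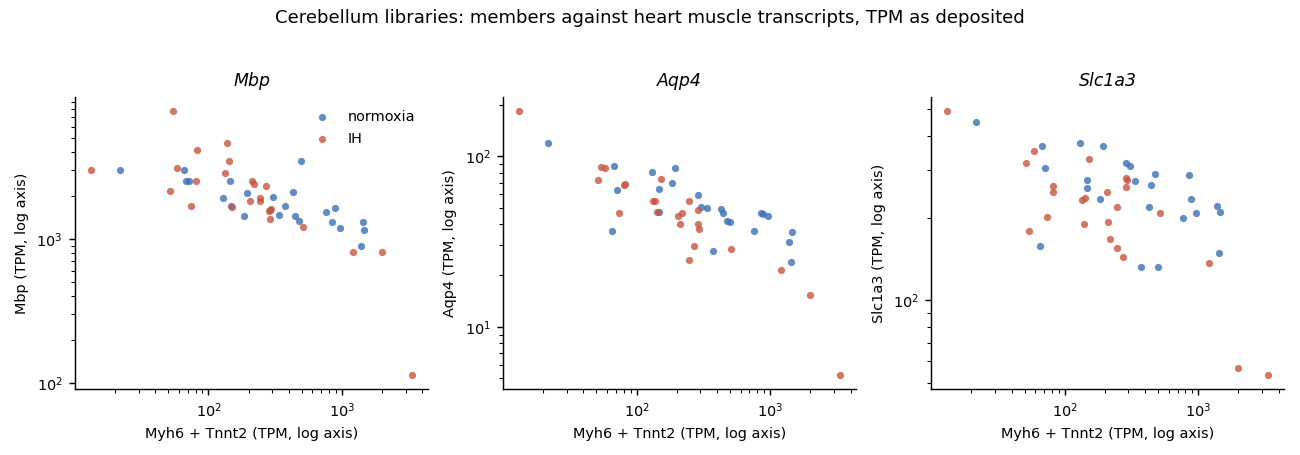
Each point is 1 cerebellum library, normoxia or IH, with the level of heart transcripts (Myh6 plus Tnnt2) on the x axis and the level of Mbp, Aqp4 or Slc1a3 on the y axis, both in TPM as deposited on log axes. Aqp4 falls most evenly along the x axis (r = -0.88 and -0.93 with the fibre genes), and replicate 3 at 1:30 after IH is the point at the lower right of each panel.

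Slc1a3, Gdf10 and Aqp4 were correlated with the granule cell genes of the cerebellar cortex. With the sum of 9 such genes (Gabra6, Neurod1 and others; 883 to 3014 TPM in normoxia and 260 to 3912 TPM after IH) Slc1a3 had r = 0.91 in normoxia and 0.83 after IH, and Gdf10 0.65 and 0.89. The adjusted p was 0.00018 for each of these except Gdf10 in normoxia, at 0.00283. Aqp4 had r = 0.69 (adjusted p = 0.00146) and 0.77 (adjusted p = 0.00105), the latter at 0.41 without the 2 farthest libraries. Below the limit for Myh6, r was 0.93 and 0.83 for Slc1a3, 0.79 and 0.78 for Gdf10 and 0.65 and 0.39 for Aqp4. With 11 brainstem genes, Hox genes and markers of brainstem nuclei, whose sum ranged from 1.90 to 122.7 TPM in normoxia and from 2.24 to 86.4 TPM after IH, Slc1a3 had r = -0.80 in normoxia (rho -0.71, adjusted p = 0.000295) and -0.44 after IH (rho -0.53, adjusted p = 0.0567). Mog had r = 0.49 with the brainstem genes in normoxia (adjusted p = 0.0377), which was 0.26 without the 2 farthest libraries. Below the limit for Myh6, r with the brainstem genes was -0.78 in normoxia and -0.66 after IH for Slc1a3 and 0.58 and 0.70 for Mog. The part of tissue composition in the levels of Slc1a3 and Mog was not tested.

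The genes nearest to each of the 9 were sought among the 10349 genes that averaged 5 TPM or more over the 48 cerebellum libraries, by Spearman's rho after the mean of each treatment had been taken off. These values are descriptions, and many genes share the same libraries and heart transcripts. Without the 6 libraries above the limit the rho of the genes named here lay between 0.77 and 0.96 (n = 42). Mbp was nearest to Prr18 (0.94), Mobp (0.92) and Mal (0.91), the last of which encodes a myelin proteolipid. Mobp was nearest to Mbp (0.92), Prr18 (0.88) and Tmeff1 (0.88).

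Mog was nearest to Pfn2 (0.94), Fbxo44 (0.91) and the oligodendrocyte transcription factor Olig1 (0.89). Mag was nearest to Hcn2 (0.95), Sec14l2 (0.93) and Efnb3 (0.93). Gfap was nearest to Mal (0.83), Plekhb1 (0.83) and Eml2 (0.80), and none of these 3 is on the astrocyte list.

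Aqp4 was nearest to Mtpn (0.94), Usp46 (0.93) and Gnal (0.93). Slc1a2 was nearest to Iqsec3 (0.95), Map2 (0.94), a microtubule protein of neuronal dendrites, and Kcnj10 (0.94), the inward rectifier potassium channel of astrocytes. Genes near to Slc1a3 included Zfpm2 (0.91) and Far2 (0.90), and Gdf10 was nearest to Slc1a3 (0.87), Plekhd1 (0.84) and Armc8 (0.84).

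Other genes of the same cell types were counted in the cerebellum beside the 9, where 15% of the 14892 genes tested were called. The counts are small and are not read as particular to these lists. Of 24 myelin and oligodendrocyte genes 1 rose and 2 fell: Hapln2, which organises the matrix at nodes of Ranvier, rose by 0.71 ± 0.18 (adjusted p = 0.00438), the receptor gene Gpr37 fell by 0.40 ± 0.10 (adjusted p = 0.0061) and Enpp6, an enzyme of newly forming oligodendrocytes, fell by 0.32 ± 0.11 (adjusted p = 0.0442). The list's median was -0.11 against -0.01 over all genes. Among the genes of the list that did not pass, Fa2h, a hydroxylase that makes myelin lipids, had -0.43 (adjusted p = 0.0621). Of 5 oligodendrocyte precursor genes 0 were called, with a median of -0.02.

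Of 18 further astrocyte genes 1 rose, Apoe, the lipid carrier that astrocytes secrete, by 0.29 ± 0.10 (adjusted p = 0.0329), and 0 fell, with a median of -0.05. Of 4 Bergmann glia genes 0 were called (median -0.11), with -0.36 for Ptprz1 (adjusted p = 0.058) and 0.18 for Hopx (adjusted p = 0.16). Of the other glutamate transporters 4 of 5 were tested and 0 called (median -0.01); Slc1a6, the transporter of Purkinje cells, had 0.10 (adjusted p = 0.75).

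Lists of other cell types gave the following counts, where 15% of the 14892 genes tested were called. Of 9 granule cell genes 2 rose, Grin2c by 0.61 and Rbfox3 by 0.51, and 0 fell. Gabra6 (-0.35) did not pass, and the median was 0.003. Of 8 microglia genes 4 rose, C1qa by 0.56, Tmem119 by 0.42, C1qc by 0.41 and C1qb by 0.39, and 0 fell. Cx3cr1 (-0.17) and P2ry12 (-0.17) did not pass, and the median was 0.23. Of 5 endothelial genes 1 rose, Cldn5 by 0.54, and 0 fell. Pecam1 (-0.31) and Cdh5 (-0.15) did not pass, and the median was -0.05. Of 7 genes of inhibitory interneurons 1 fell, Gad1 by 0.50, with a median of -0.15. Of 6 Purkinje cell genes, 6 choroid plexus genes, 11 brainstem genes (7 tested), 9 Schwann cell genes (5 tested) and 4 fibre genes 0 were called. The medians of these last lists were -0.14, -0.35, -0.20, -0.05 and -0.60. Without the 6 libraries above the limit the counts shifted by at most 2 genes per list and direction: 2 myelin genes rose and 1 fell (median -0.03), 2 astrocyte genes rose (median 0.01), 1 precursor gene rose and 1 fell, and 1 Bergmann glia gene fell. There 1 endothelial gene rose and 2 fell (median -0.04), and 1 choroid plexus gene fell. The count over all genes, given above, was also higher without these 6 libraries.

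The cerebellum held far more of these transcripts than the other tissues did, with Slc1a2 in the liver as the exception. In normoxia 9 of 9 genes were higher in the cerebellum than in the lung (48.9% of the 18080 genes tested were), the kidney (46.4%), the muscle (46.7%) and the heart (45.7%). Against the liver 8 of 9 were higher (49.6% of all genes) and 1 was lower. The libraries of all tissues shared 1 estimate of the spread, and each difference is on the log2(scaled TPM + 0.5) scale with adjusted p-values per pair of tissues.

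**Figure D4:**
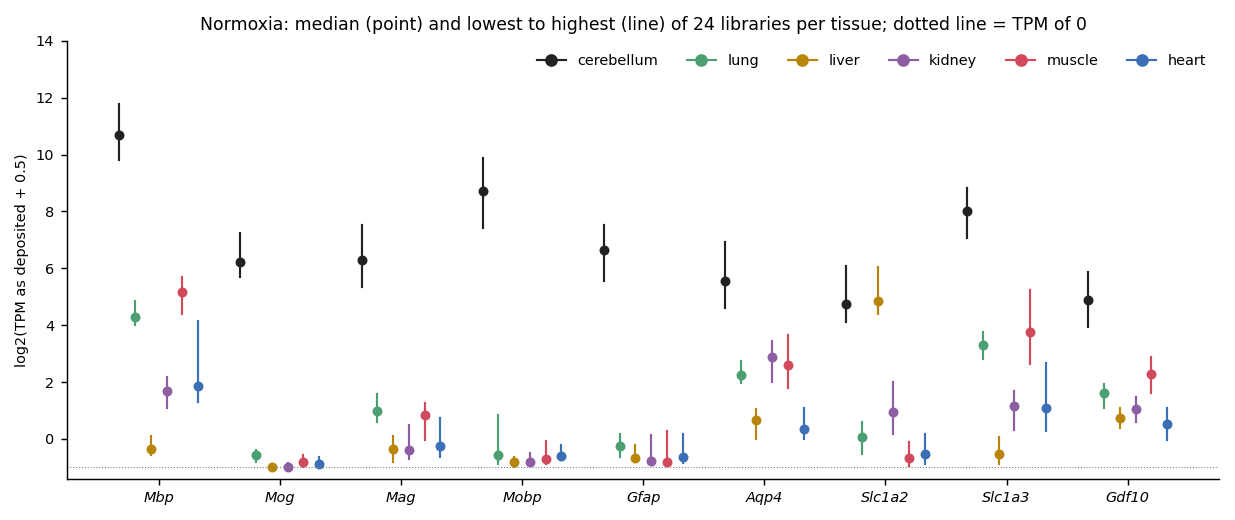
log2(TPM as deposited + 0.5) of the 9 genes in the 6 tissues in normoxia, with the median of 24 libraries as a point and the lowest to the highest library as a line. The cerebellum stands above the other tissues for 8 genes, and for Slc1a2 the liver and the cerebellum overlap.

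Mbp fell in steps through the tissues. Its median was 1660.4 TPM in the cerebellum, 35.1 in the muscle, 18.9 in the lung, 3.10 in the heart, 2.68 in the kidney and 0.284 in the liver. Every step between the means of neighbours in this order passed the test. The smallest was heart against kidney, at 0.81 ± 0.10 (SE, adjusted p = 9.09e-13). The libraries of these tissues still overlapped, at 1.98 to 17.1 TPM in the heart and 1.64 to 3.98 TPM in the kidney. The sum of 9 Schwann cell genes, the cells that myelinate peripheral nerves, had medians of 472 TPM in the lung, 162 in the muscle, 41.0 in the kidney, 37.3 in the heart and 3.25 in the liver. The list is not particular to Schwann cells, since oligodendrocytes share genes such as Sox10, and its median in the cerebellum was 939.5 TPM.

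Mag followed with 77.8 TPM in the cerebellum, and its order was then the muscle (1.31), the lung (1.496), the heart (0.336), the liver (0.292) and the kidney (0.261), in medians of deposited TPM. The order was set on scaled values, on which the muscle stood above the lung by 0.37 ± 0.10 (adjusted p = 0.000544), the reverse of the deposited medians. The difference between the heart and the liver did not pass (0.01 ± 0.10, adjusted p = 0.919).

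Mobp and Mog were close to absent outside the cerebellum. Mobp had a median of 421 TPM there and of at most 0.183 TPM elsewhere, and in the order of scaled levels the heart stood above the muscle by 0.18 ± 0.08 (adjusted p = 0.0318). The next steps, from the muscle through the lung and liver to the kidney, did not pass (adjusted p between 0.135 and 0.744). Mog had a median of 74.8 TPM in the cerebellum and of at most 0.175 TPM elsewhere. It was listed at 0 in 14 of 24 liver libraries, 9 of 24 kidney libraries, 2 in the muscle and 1 in the heart. On scaled values the lung and the muscle did not differ past the threshold (0.02 ± 0.06, adjusted p = 0.724).

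Gfap had a median of 100.4 TPM in the cerebellum and between 0.0689 and 0.348 TPM in the other tissues, in the order liver, heart, lung, muscle and kidney on scaled values. In deposited TPM the lung had the highest of these medians, against 0.135 in the liver, so the order depends on the scale. These medians lie under the 0.5 added before the log, so the steps among these tissues are near the floor. The lung stood above the muscle by 0.17 ± 0.08 (adjusted p = 0.0412), and the other steps among these tissues did not pass (adjusted p = 0.537, 0.572 and 0.597). Aqp4 was spread more widely: its median was 46.8 TPM in the cerebellum, 6.89 for kidney, 5.61 for muscle, 4.30 for lung, 1.07 for liver and 0.780 for heart. On scaled values the step from the muscle to the kidney did not pass (0.09 ± 0.09, adjusted p = 0.391), and the cerebellum stood above the muscle by 2.39 ± 0.09 (adjusted p = 6.26e-55).

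Slc1a2 and Slc1a3 encode related transporters and differed in the tissue beside the cerebellum where they were high. Slc1a2 had a median of 28.2 TPM in the liver (20.3 to 65.6) and 26.1 TPM in the cerebellum (16.7 to 67.3). These ranges overlapped, and on scaled values the liver was higher by 1.30 ± 0.09 (adjusted p = 2.13e-28), while with TPM as deposited the level in the cerebellum minus that in the liver was -0.12 and did not pass (adjusted p = 0.267). Its median was 1.41 TPM for kidney, 0.547 for lung, 0.189 for heart and 0.126 for muscle. On scaled values the step from the lung to the heart did not pass (adjusted p = 0.429).

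Slc1a3 had a median of 260.3 TPM in the cerebellum, 13.0 in the muscle, 9.38 in the lung, 1.72 in the kidney, 1.61 in the heart and 0.189 in the liver. On scaled values every step between the means of neighbours passed the test. The smallest was heart above kidney, at 0.50 ± 0.12 (SE, adjusted p = 0.000129), the reverse of the deposited medians. The libraries overlapped, at 0.707 to 5.86 TPM in the heart and 0.752 to 2.73 TPM in the kidney. Gdf10 had 28.9 TPM in the cerebellum and 4.41 in the muscle, a step of 2.08 ± 0.08 (adjusted p = 3.19e-58), and between 0.948 and 2.54 TPM elsewhere. For Gdf10 the steps from the lung to the kidney (adjusted p = 0.93) and from the kidney to the heart (adjusted p = 0.0907) did not pass on scaled values. In deposited TPM its median was 2.54 in the lung (1.62 to 3.32) and 1.56 in the kidney (1.03 to 2.26), so the closeness of these tissues depends on the scale.

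Outside the cerebellum a few of these genes were called after IH, each at a lower level there than in the cerebellum. The counts rest on 2 to 5 genes per tissue and stand beside the share of all genes called. They are not read as particular to these genes. In the lung 5 of the 9 genes reached a mean of 1 TPM and 4 were called, where 70.4% of the 15426 genes tested were, and 1 met the 1.5-fold change, where 13.48% did. Mag, the gene that met it, had a median of 1.496 TPM in normoxia (1.01 to 2.5) and of 3.498 TPM after IH (1.98 to 8.83). Only the top of the normoxia range overlapped the bottom of the IH range, and the log2 change was 0.68 ± 0.10 (adjusted p = 1.34e-07). Within replicate numbers 1, 2 and 3 the change of Mag was 0.98, 0.84 and 0.21.

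Slc1a3 rose in the lung by 0.24 ± 0.07 (adjusted p = 0.00421), with medians of 9.38 TPM in normoxia (6.47 to 13.1) and 13.6 TPM after IH (8.65 to 27.9). Mbp fell by 0.38 ± 0.09 (adjusted p = 0.000246) and Aqp4 by 0.26 ± 0.09 (adjusted p = 0.00915) on scaled values, but with TPM as deposited the differences were -0.08 (adjusted p = 0.445) for Mbp and 0.01 (adjusted p = 0.913) for Aqp4. The median change over all genes tested in the lung was -0.08 on scaled values and 0.21 with TPM as deposited, so that relative to it Mbp and Aqp4 were lower on either scale. Within replicate number 3 Mbp was higher after IH in the lung by 0.16, against -0.68 and -0.65 in the others. When the model also held each library's count of detected genes, 0 of the 5 were called, where 8087 of 15426 genes still were, the values were 0.07 for Mag and 0.05 for Slc1a3, and Mbp (0.15), Aqp4 (0.08) and Gdf10 (0.23) took the other sign.

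In the heart 3 genes were tested and 2 were called, both higher, where 45.2% of 12779 genes were called and 2.95% with the fold, which 0 of the 3 met. Gdf10 had a median of 0.948 TPM in normoxia (0.467 to 1.61) and 1.42 TPM after IH (0.689 to 2.85), a rise of 0.35 ± 0.09 (adjusted p = 0.000868). Its mean was 0.984 TPM in normoxia and 1.54 TPM after IH. It thus reached the filter of 1 TPM only through the IH libraries, where it was higher, which limits this call. Mbp had 3.10 TPM in normoxia (1.98 to 17.1) and 5.44 TPM after IH (2.36 to 43.6), a rise of 0.41 ± 0.18 (adjusted p = 0.0499). The highest IH library of both genes was replicate 2 at 10:30, which held Pcp2. Without it Gdf10 rose by 0.32 (adjusted p = 0.00141) and Mbp, at 0.29, no longer passed (adjusted p = 0.0652). With the count of detected genes in the model, where 257 of 12779 genes passed against 5782 without it, neither passed (adjusted p = 0.344 for Mbp and 0.324 for Gdf10).

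In the kidney 1 of 5 genes was called, where 19.8% of 12902 were (0.783% with the fold, 0 of the 5). Slc1a3 rose from a median of 1.72 TPM in normoxia (0.752 to 2.73) to 1.99 TPM after IH (0.854 to 3.95). The groups overlapped over most of their range, and the change was 0.31 ± 0.10 (adjusted p = 0.0193), with 0.30, 0.32 and 0.31 within the 3 replicate numbers, none of which passed alone (adjusted p = 0.388, 0.143 and 0.121). The call was lost with TPM as deposited (0.28, adjusted p = 0.111), with the count of detected genes in the model (0.23, adjusted p = 0.0947) and without any 1 of the replicate numbers (adjusted p between 0.0542 and 0.0674).

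In the liver 0 of 2 genes were called (24.3% of 11334 genes, 3.65% with the fold, which 0 of the 2 met). Slc1a2 had a median of 28.2 TPM in normoxia and 19.1 TPM after IH, where it ranged from 0.619 to 61.2 TPM, and the difference was -0.47 ± 0.22 (adjusted p = 0.121). The lowest IH value came from replicate 2 at 13:30, the library with heart transcripts, and without it the difference was -0.31 (adjusted p = 0.163). Within replicate numbers the difference of Slc1a2 was -0.92, -0.93 and 0.42.

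In the muscle 0 of 5 genes were called (10.4% of 12824 genes, 0.374% with the fold, which 0 of the 5 met), with 1 at an unadjusted p under 0.05. That gene was Aqp4, which anchors at the muscle fibre membrane, with medians of 5.61 TPM in normoxia (2.98 to 12.1) and 8.26 TPM after IH (4.55 to 15.5). Its difference was 0.35 ± 0.13 (adjusted p = 0.0678). It passed with TPM as deposited, at 0.44 (adjusted p = 0.0226).

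**Figure D5:**
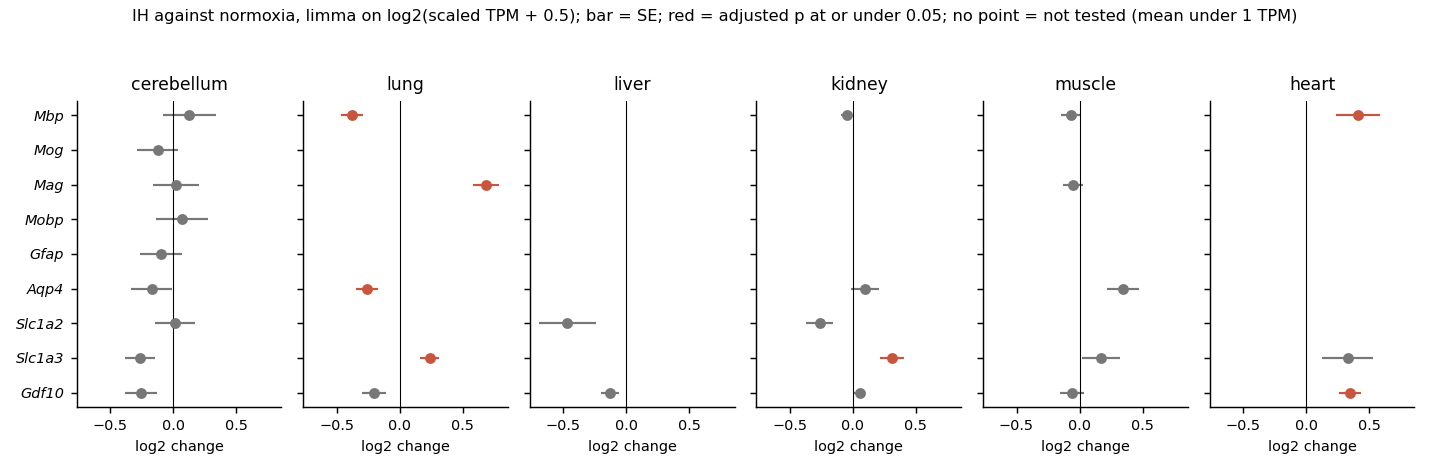
log2 change after IH (IH minus normoxia) of the genes tested in each tissue, with the SE as a bar and red where the adjusted p was at most 0.05, by tissue. In the cerebellum 0 of 9 are called, in the lung 4 of 5, with Mag at 0.68 the highest of the genes shown.

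A treatment-by-tissue interaction asked whether the change after IH differed between the cerebellum and each other tissue. It took libraries of both tissues as independent and scaled them jointly, so its values differ slightly from those of the separate fits. Against the lung 3 of 5 genes differed, where 53.4% of 13178 genes did: Slc1a3 by -0.42 ± 0.14 (adjusted p = 0.00749), Mag by -0.57 ± 0.21 (adjusted p = 0.0177) and Mbp by 0.58 ± 0.23 (adjusted p = 0.0292), each as the change in the cerebellum minus that in the lung. Against the kidney 1 of 5 differed (12.2% of all), Slc1a3 by -0.58 ± 0.16 (adjusted p = 0.00736). Against the heart 2 of 3 differed (29.7%), Gdf10 by -0.66 ± 0.15 (adjusted p = 0.000639) and Slc1a3 by -0.64 ± 0.24 (adjusted p = 0.0374). Gdf10 had reached the filter in the heart only through the IH libraries. Against the liver 0 of 2 (22.3%) and against the muscle 0 of 5 (19.4%) differed.

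Slc1a3 thus stood at -0.26 in the cerebellum and at 0.24 in the lung, 0.31 in the kidney and 0.33 in the heart. The comparisons share the cerebellum libraries, so they are not independent of each other. Without the libraries that held transcripts of another tissue Slc1a3 still differed from the lung (-0.30, adjusted p = 0.0221) and the kidney (-0.47, adjusted p = 0.0117) and no longer from the heart (-0.47, adjusted p = 0.116), while Gdf10 still differed from the heart (-0.51, adjusted p = 0.0018).

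A 24-hour rhythm was called for 2 of the genes, both glutamate transporters in the lung. In normoxia 1 of 8 genes passed there (6.8% of 20106 genes) and after IH 2 of 8 (3.39%). Slc1a3 peaked in normoxia at 23.4 hours with an amplitude of 0.27 on the log2 scale (adjusted p = 0.000134) and after IH at 0.520 hours with an amplitude of 0.32 (adjusted p = 0.00367). Its scaled mean after IH was 15.7 ± 4.23 at 1:30 and 9.49 ± 0.560 at 10:30 (SD, n = 3 each).

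Slc1a2 peaked in the lung after IH at 0.394 hours with an amplitude of 0.56 (adjusted p = 0.00277). Its scaled mean was 2.43 ± 0.373 at 1:30 and 0.417 ± 0.119 at 10:30 (SD, n = 3 each). Its 3 libraries at 1:30 lay at 2.09, 2.83 and 2.36, above those of 10:30 at 0.442, 0.521 and 0.288. It did not pass in normoxia, and the difference in rhythm between the treatments did not pass either (unadjusted p = 0.00177, adjusted p = 1), where 0% of all genes in the lung did.

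In the other tissues 0 genes of the 9 passed. These were 6 tested in the liver (14.4% of all genes passed in normoxia, 2.33% after IH), 5 in the kidney (18.6% and 5.38%), 5 in the muscle (5.38% and 7.43%) and 8 in the heart (0.558% and 3.45%). A gene was tested when 1 library of either treatment reached 1 TPM. In the heart Mog, Mobp and Gfap reached at most 0.634 TPM in normoxia. Their highest IH library (1.75, 8.65 and 2.19 TPM) was replicate 2 at 10:30, which held Pcp2. In the liver Mbp and Slc1a3 reached at most 0.564 TPM in normoxia. They were highest (2.99 and 1.85 TPM) in replicate 2 at 13:30 after IH, which held Myh6. Mag in the liver reached at most 0.567 TPM in normoxia and 1.55 TPM after IH. Gfap in the lung, tested there as well, reached at most 0.627 TPM in normoxia and 1.71 TPM after IH. For these genes the lack of a call says little about a rhythm. Slc1a3 in the muscle in normoxia had an amplitude of 0.47 and a peak at 9.23 hours (adjusted p = 0.0526). A difference of rhythm between the treatments was called for 0 of these genes in the liver, the kidney, the muscle and the heart, where 0% of all genes were called in each.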

How the data were processed

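RNA from 6 tissues was sequenced in 288 libraries. According to the study's methods and the labels, the authors quantified reads with kallisto and deposited TPM per gene, which carry no counts. Of the columns, 0 lacked a sample. TPM were divided by median-of-ratios factors and tested as log2(scaled TPM + 0.5) with limma 3.58.1 (R 4.3.3), intensity trend, Benjamini-Hochberg over all genes averaging 1 TPM or more, since TPM do not allow the count model of the study. Rhythms used a 24-hour cosine over genes reaching 1 TPM. Correlations used 100000 permutations. The fits were tested on simulated data. Replicates are separate mice per the methods, and the sources used here do not tie the tissues of 1 mouse together. The 9 genes, the 14 marker lists and the tests were chosen with earlier results of these data known. Named besides the 9 genes are the 3 nearest to each by Spearman's rho and, per list, up to 2 with the largest rise and fall, and genes past the threshold were named after their values were seen. A few genes that this rule names are not reported here. Alternatives varied the pseudocount (0.1, 1), filter, scaling, terms and replicates.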

Additional observations from a re-analysis of the deposited data

Results flagged for a closer look

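For Slc1a3, Gdf10, Mag and Mbp the change after IH in the cerebellum differed from that in another tissue by a test of the difference itself, where 53.4% of the 13178 genes tested differed against the lung, 12.2% against the kidney and 29.7% against the heart. Slc1a3 differed from the lung by -0.42 (adjusted p = 0.00749), from the kidney by -0.58 (adjusted p = 0.00736) and from the heart by -0.64 (adjusted p = 0.0374), each as the log2 change in the cerebellum minus that in the other tissue. Gdf10 differed from the heart by -0.66 (adjusted p = 0.000639), where it had reached the filter only through the IH libraries. Against the lung Mag differed by -0.57 (adjusted p = 0.0177) and Mbp by 0.58 (adjusted p = 0.0292). The adjusted p-values are from limma. Without replicate number 1 none of these 6 differences passed: Slc1a3 stood at -0.35 against the lung (adjusted p = 0.0636), -0.50 against the kidney (adjusted p = 0.168) and -0.42 against the heart (adjusted p = 0.396), Gdf10 at -0.47 (adjusted p = 0.116), Mag at -0.53 (adjusted p = 0.129) and Mbp at 0.17. With TPM as deposited Mbp stood at 0.20 against the lung (adjusted p = 0.568). The cerebellum libraries are shared by all of these comparisons.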

How the results depend on the processing

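Of 405 comparisons of levels between the cerebellum and another tissue under the alternatives, 404 kept their direction and side of the threshold, as did 293 of 359 log2 changes after IH, 395 of 456 counts and 36 of 50 differences between tissues. The exception among levels was Slc1a2 against the liver with TPM as deposited. Unless said otherwise, the cause of a change was not tested. TPM keep no counts, so that low genes outside the cerebellum cannot be given a counting error. The alternatives that used heart transcripts as a term or left out libraries with transcripts of another tissue were chosen after seeing the data.

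In the cerebellum, the term for heart transcripts gave 3 called genes and turned the sign of Mbp (-0.067), Mag (-0.15), Mobp (-0.094) and Slc1a2 (-0.18), which pass in neither. The number of detected genes as a term gave -0.10 for Mag and -0.079 for Slc1a2, leaving out the mixed libraries gave 0.022 for Mog, and 0.014 came out for Gfap without the least correlated library. Leaving out each replicate number in turn, the log2 change ranged from -0.14 to 0.34 for Mbp, -0.11 to 0.27 for Mag, -0.14 to 0.18 for Mobp, -0.26 to 0.078 for Gfap, -0.38 to 0.014 for Aqp4 and -0.14 to 0.13 for Slc1a2. The count of correlated pairs after IH was 15 with the term for heart transcripts and 16 without the 2 farthest libraries.

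In the lung, 0 genes passed with the 1.5-fold change at a pseudocount of 1, under a 5 TPM filter (which leaves Mag untested) or with the term for detected genes, and 0 to 2 without a replicate. At the adjusted p alone, 2 passed under a 5 TPM filter, 8 with no filter, 2 with TPM as deposited, 0 with the term for detected genes, and 2 to 5 without a replicate. That term gave 0.15 for Mbp, 0.082 for Aqp4 and 0.23 for Gdf10, and TPM as deposited gave 0.012 for Aqp4 and 0.049 for Gdf10. In the liver 1 gene passed with the term for detected genes. Without a replicate 0 to 2 passed there, 0 to 1 with the fold, and Gdf10 ranged from -0.31 to 0.0098, with both tested genes, Slc1a2 (-0.92, adjusted p = 0.00271 by limma) and Gdf10, past the threshold without replicate 3.

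For the kidney 0 genes passed under the 5 TPM filter, with TPM as deposited, with the term for detected genes, or without any 1 of the replicate numbers. Mbp stood at 5.1e-06 with that term and, without a replicate, ranged from -0.13 to 0.031, Aqp4 from -0.085 to 0.26 and Gdf10 from -0.0061 to 0.10. In the muscle 1 gene, Aqp4, passed with TPM as deposited, with a time point term, with a replicate block, with the term for detected genes and without the least correlated library. TPM as deposited gave 0.029 for Mbp, 0.014 for Mag and 0.027 for Gdf10. Without a replicate Mbp ranged from -0.24 to 0.039, Mag from -0.13 to 0.033, Slc1a3 from -0.060 to 0.33 and Gdf10 from -0.11 to 0.029. In the heart 1 gene passed at a pseudocount of 1, under a 5 TPM filter, with no filter, with a time point term and without the mixed library, and 0 with the term for detected genes. Without a replicate 0 to 2 passed there, 0 to 1 with the fold.

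The count of genes whose change differed from the cerebellum's was 0 for the kidney under a 5 TPM filter or with TPM as deposited. For the heart it was 0 under a 5 TPM filter and 1 with TPM as deposited or without the mixed libraries. Without a replicate it was 0 to 4 for the lung, 0 to 1 for the liver, 0 to 1 for the kidney, 0 to 2 for the muscle and 0 to 2 for the heart. Rhythmic genes numbered 1 in the lung after IH under a 5 TPM filter, 1 in the liver in normoxia by a rank test, and 1 in the muscle in normoxia under a 5 TPM filter. Without a replicate they numbered 0 to 2 in the lung after IH, 0 to 1 in the liver in normoxia and 0 to 1 in the kidney after IH.

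The replicate number was also fitted as a block. In 0 of the 6 tissues did every same-numbered pair correlate above 0.1, so the numbers were not taken to pair the samples: of 24 same-numbered pairs per tissue, those correlated above 0.1 in their deviations numbered 8 (cerebellum), 6 (lung), 16 (liver), 6 (kidney), 12 (muscle) and 8 (heart). In the liver, where most did, the median correlation was 0.22. With the replicate block, 0 genes passed after IH in the cerebellum, 5 in the lung, 0 in the liver (3643 of all genes against 2750 without it, with Slc1a2 at an adjusted p of 0.0594 by limma), 1 in the kidney, 1 in the muscle and 2 in the heart. The block gave 1 rhythmic gene in the liver in normoxia, 3 in the muscle in normoxia and 1 in the muscle after IH. Apart from the liver after IH, counts over all genes under the block are not given here. The counts with the block are therefore not read as particular to these genes.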
